A study of Mus musculus with 32 samples.

Results

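The comparison described here sets livers of short-light mice against livers of long-light mice sampled 12 h apart on the light schedule. All 32 libraries of the series (32 of 32) entered it, as 4 pairs of groups: SL ZT0 with LL ZT12, SL ZT6 with LL ZT18, SL ZT12 with LL ZT0, and SL ZT18 with LL ZT6. SL and LL are the photoperiods short light and long light, and ZT is zeitgeber time, the hour on the light schedule. The sources used here give neither the hours of light in each photoperiod nor the event that marks ZT0. Each group held 4 libraries from male C3H/HeNCrl mice, an inbred strain, and every mouse of both photoperiods was fed a high fat diet (HFD), so no group shows the liver on another diet. The labels number the 4 libraries of a group and name no age or genotype beyond the strain. The p-values rest on the spread between samples within groups, shared for each gene over all 8 groups.

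The offset of the pairs was chosen by measured values of these data, the count of genes whose difference changed over the day. When LL was taken at the same ZT, or 6, 12 or 18 h later, the number of genes whose SL minus LL difference varied with time was 4720, 1350, 75 and 3821, and 12 h gave the fewest. The small size of the counts below is therefore a description of the chosen offset and supports nothing by itself. The mean of the 4 differences is the same whatever the offset, and was not used in the choice.

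In liver, the circadian clock is a feedback loop in which BMAL1 (Arntl) pairs with CLOCK or NPAS2 to drive the Per and Cry repressors, the REV-ERB receptors (Nr1d1, Nr1d2) and the D-box factors Dbp, Tef and Hlf. REV-ERB and ROR receptors compete for shared promoter elements and return the signal to Arntl. The loop sets the daily timing of many enzymes of lipid, bile acid and drug metabolism, so livers sampled at unequal clock phase differ in many transcripts.

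Total counts ranged from 9095615 to 27462776 per library (median 15665632), and 14456 of 55471 annotated genes were tested. Levels are given as CPM (counts scaled to library size), and differences as log2 of SL over LL with the standard error (SE). The summed level of 8 hepatocyte markers lay between 106500 and 138300 CPM in all libraries, and no hepatocyte marker was called in any pair. Summed skeletal muscle markers, by contrast, ranged from 0.458 to 197 CPM. They were highest in LL ZT18 replicate 3, LL ZT0 replicate 2 (91.9 CPM) and LL ZT18 replicate 2 (57.7 CPM). LL ZT12 replicate 3 stood apart from its group mates, with a mean correlation of 0.969 where all other libraries lay between 0.981 and 0.989.

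Few transcripts differed in the offset pairs. At an adjusted p under 0.05, 5 of 14456 genes (0.0346%) were called in SL ZT0 minus LL ZT12, 64 (0.443%) in SL ZT6 minus LL ZT18, 1 (0.00692%) in SL ZT12 minus LL ZT0 and 8 (0.0553%) in SL ZT18 minus LL ZT6. At the same ZT the numbers were 1596 (11%), 2208 (15.3%), 1799 (12.4%) and 1331 (9.21%) in order of the SL time, from comparisons that share the SL libraries with the pairs. In total 77 genes were called in at least 1 pair. Of these, 1 was called in 2 pairs, with opposite directions, and 0 genes were called in the same direction in at least 2 pairs. For 51 of the 77 genes time of day was called in SL and in LL alike. Over all tested genes it was called for 19.1% in SL and for 18.3% in LL, each photoperiod taken alone.

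The 8 genes called in SL ZT18 minus LL ZT6, 4 higher (0.0277%) and 4 lower (0.0277%) in SL, included the clock list members Per3, Dbp, Tef and Npas2. Ppard, which codes for the fatty acid receptor PPAR delta (chromosome 17, 28232700 to 28301474, GRCm38), was at 22.4, 35.9, 38.4 and 43.8 CPM in SL ZT18 and at 10.3, 11.6, 14 and 11.5 CPM in LL ZT6. Every SL library lay above every LL library. The mean was 35.1 ± 9.11 CPM (SD, n = 4) against 11.9 ± 1.54 CPM, a 2.93-fold rise (log2 difference 1.55, SE 0.15, adjusted p = 2.59e-07 by the quasi-likelihood test of edgeR). In the other pairs Ppard was at 9.50 against 9.99 CPM (SL ZT0 and LL ZT12), 13 against 17.6 CPM (SL ZT6 and LL ZT18) and 57.3 against 48.2 CPM (SL ZT12 and LL ZT0), and none of these differences passed the test.

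Per3, a member of the Period repressor family (chromosome 4, 151003652 to 151044665), was at 12.6, 7.04, 5.66 and 4.41 CPM in SL ZT18 against 52.2, 22, 19.9 and 33.1 CPM in LL ZT6. The groups did not overlap, and Per3 was 4.17-fold lower in SL (log2 difference -2.06, SE 0.26, adjusted p = 5.45e-05). Dbp, which codes for an activator that binds D-box elements (chromosome 7, 45705088 to 45710203), was at 10.8, 4.34, 5.66 and 3.42 CPM against 48.2, 17.2, 20.8 and 47.8 CPM. Dbp was 5.45-fold lower in SL (log2 difference -2.45, SE 0.37, adjusted p = 0.000901). Tef, its close relative, was at 95.2, 69.0, 67.6 and 60.7 CPM against 176, 108, 114 and 124 CPM, 1.78-fold lower (log2 difference -0.83, SE 0.14, adjusted p = 0.00425). The 3 falling transcripts of the Per and D-box families were lowest in the same SL library, replicate 4, and highest in LL ZT6 replicate 1.

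In the opposite direction, Npas2, the alternative partner of BMAL1 (chromosome 1, 39193731 to 39363236), was at 6.02, 9.36, 12.4 and 13.2 CPM in SL ZT18 against 1.74, 4.13, 3.77 and 2.65 CPM in LL ZT6. The rise was 3.22-fold (log2 difference 1.69, SE 0.33, adjusted p = 0.0373). Cdkn1a, which codes for the cell cycle inhibitor p21 (chromosome 17, 29090976 to 29100727), was at 10.5, 20.9, 19.9 and 26.7 CPM against 2.84, 8.48, 6.53 and 5.02 CPM. It rose 3.32-fold (log2 difference 1.73, SE 0.25, adjusted p = 0.000806), while in SL ZT0 and LL ZT12 it stood at 2.03 and 2.2 CPM. Ppard, Cdkn1a and the remaining 2 genes lie outside the clock list. Gnat1, which codes for a transducin alpha subunit, fell from 46.5, 26, 29.2 and 38.9 CPM in LL to 21, 19.7, 18.7 and 13.8 CPM in SL. Pxmp4, a peroxisomal membrane protein gene, rose from 117, 153, 152 and 146 CPM to 184, 175, 188 and 209 CPM (log2 difference 0.41, SE 0.08, adjusted p = 0.0465).

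All 8 had no overlap between the 4 SL and 4 LL libraries, which over all tested genes held for 4.33% in this pair. Ppard, Per3, Dbp and Cdkn1a stayed past the threshold with each of the 32 libraries left out in turn, whereas Pxmp4 did so in 8 of 32, Npas2 in 19, Gnat1 in 22 and Tef in 30. Fitted on the 8 libraries of the pair alone, Ppard was called (adjusted p = 0.0289), and Per3 (0.109), Dbp (0.109), Cdkn1a (0.112) and the other 4 genes were not. The count of 8 became 18 without LL ZT12 replicate 3 and 16 without SL ZT6 replicate 3, and it became 4 without SL ZT18 replicate 4 or LL ZT6 replicate 1. It became 5 without SL ZT0 replicate 3, SL ZT12 replicate 2 or 4, SL ZT18 replicate 2 or 3, LL ZT0 replicate 3, LL ZT6 replicate 4 or LL ZT18 replicate 4. Dbp overlaps Sphk2 on the opposite strand, Per3 overlaps Camta1 on the same strand, Npas2 overlaps Gm3617 on the same strand and Gm20428 on the opposite strand, Tef overlaps Gm17597 and Cdkn1a another transcript on the opposite strand, so reads may be shared between these loci; Ppard, Gnat1 and Pxmp4 overlap no other gene.

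**Figure D1:**
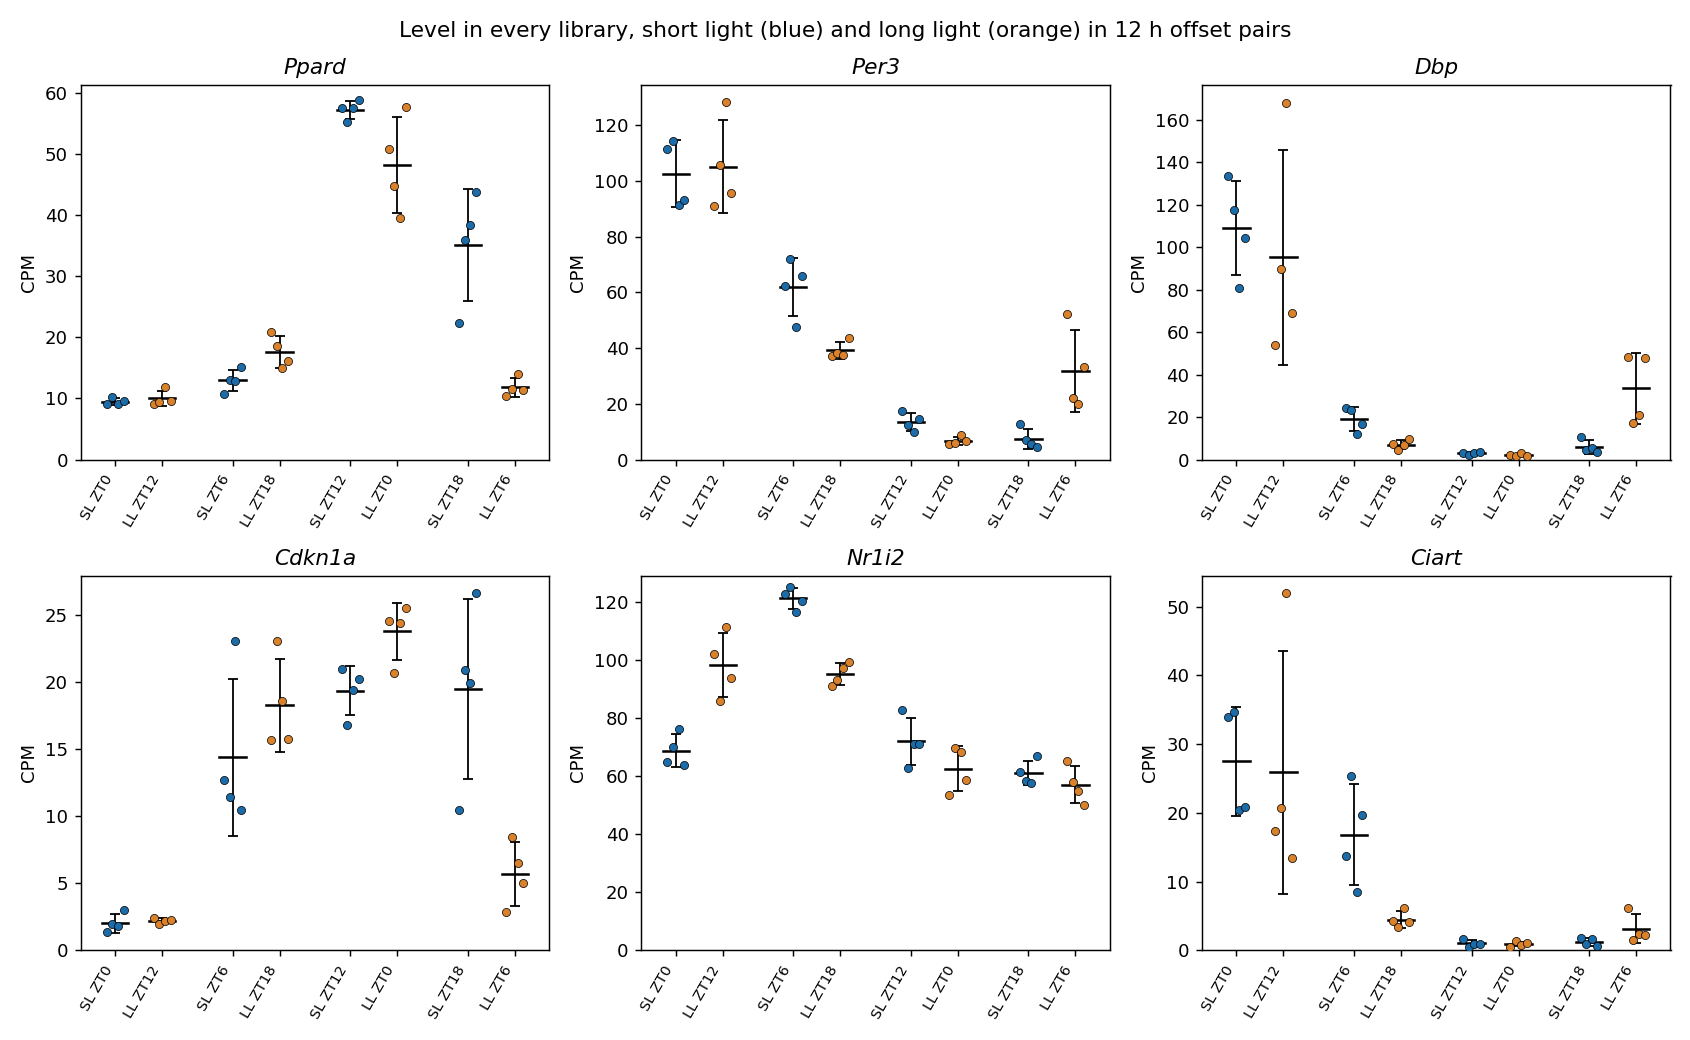
Level of 6 genes in CPM in every library (points), with the group mean (line) and SD (bar), n = 4; SL groups are blue, LL groups orange, and paired groups stand side by side. Ppard and Cdkn1a are higher, and Per3 and Dbp lower, in SL ZT18 than in LL ZT6, with no overlap; Nr1i2 is lower in SL ZT0 than in LL ZT12; Ciart is higher in SL ZT6 than in LL ZT18.

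The pair SL ZT6 minus LL ZT18 held 64 called genes, 16 higher (0.111%) and 48 lower (0.332%) in SL, in 2 groups that differed in kind. Of the 48 lower genes, 24 followed the skeletal muscle marker sum across the 32 libraries (r from 0.808 to 0.991), and are described after the others. The other 40 genes, 16 higher and 24 lower, included clock genes and enzymes, and 2 genes known from muscle, Pygm and Nexn, that fell short of that correlation. Time of day was called in SL and in LL for all of these 40 but those 2. Over all tested genes it was called for 19.1% (SL) and 18.3% (LL), each photoperiod taken alone. The 16 higher genes peaked in SL between 1.11 and 6.24 h (median 3.39 h), and the 22 lower genes that varied in both peaked between 12.9 and 16.7 h (median 14.9 h).

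Among the higher genes, Ciart, which codes for a repressor of CLOCK and BMAL1 (chromosome 3, 95878503 to 95882251), was at 13.7, 25.4, 8.44 and 19.7 CPM in SL ZT6 against 4.31, 3.37, 6.15 and 4.09 CPM in LL ZT18. The rise was 3.73-fold (log2 difference 1.90, SE 0.39, adjusted p = 0.0232), and the lowest SL library lay above the highest LL library. Nr1d2, which codes for the repressor REV-ERB beta, was at 54.3, 77.2, 61.6 and 55.3 CPM against 31.1, 29.4, 45.7 and 37.4 CPM (log2 difference 0.79, SE 0.18, adjusted p = 0.0371). Gpcpd1, a phosphodiesterase gene of choline phospholipid breakdown, was at 68.0, 90.8, 56.6 and 54.1 CPM against 27.8, 24.4, 39.7 and 30.1 CPM, 2.2-fold higher. Coq10b, a coenzyme Q binding protein gene, was at 40.3, 50.5, 31.5 and 45.0 CPM against 23.9, 20.3, 27.5 and 18.1 CPM, 1.86-fold higher. These 4 genes had no overlap between the groups. Of the 64 called genes 60 had none, against 5.01% of all tested genes in this pair.

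Other called genes rose as well. Nrg4, which codes for a growth factor of the EGF family, was at 36.0, 33.8, 25.4 and 32.0 CPM against 22.5, 20.1, 17.7 and 17.8 CPM (log2 difference 0.70, adjusted p = 0.0221). Angptl2, which codes for a secreted angiopoietin-like protein, was at 20.6, 20.2, 17.2 and 19.7 CPM against 13.8, 13.8, 15.3 and 15.6 CPM (log2 difference 0.40, adjusted p = 0.0232). Atp10d, a flippase-family gene that the annotation lists as a polymorphic pseudogene, was at 29.4, 22.4, 30.3 and 27.1 CPM against 16.4, 18.0, 17.6 and 14.5 CPM (log2 difference 0.72, SE 0.14, adjusted p = 0.0198). Tmc7 (log2 difference 0.93), Kcnk5 (0.82, a potassium channel), Trim24 (0.70) and Slc22a5 (0.53, a carnitine transporter) were also called. The rule passed over unnamed loci, and of these Gm14097 rose by more than all named genes but Ciart (log2 difference 1.74, 5.34 against 1.57 CPM).

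Among the lower genes, Elovl3, a fatty acid elongase gene with a strong daily rhythm in liver (chromosome 19, 46131897 to 46135694), was at 77.6, 115, 114 and 108 CPM in SL ZT6 against 197, 224, 271 and 238 CPM in LL ZT18. It was 2.24-fold lower (log2 difference -1.17, SE 0.22, adjusted p = 0.0182). Slc30a10, a manganese exporter gene, was at 42.0, 41.2, 43.9 and 44.3 CPM against 102, 81.5, 59.6 and 77.6 CPM, 1.87-fold lower (adjusted p = 0.0116). In both genes the groups did not overlap.

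Clpx, which codes for a subunit of a mitochondrial protease, was at 118, 144, 261 and 141 CPM against 291, 290, 295 and 322 CPM, so SL ZT6 replicate 3 lay close to the LL libraries. Dnmt3b, a DNA methyltransferase gene, was at 3.67, 4.02, 3.69 and 4.06 CPM against 8.25, 7.03, 6.01 and 7.25 CPM, 1.85-fold lower. Coq8a (log2 difference -0.57), a gene of coenzyme Q synthesis, and the tight junction genes Cgn (-0.47) and Tjp3 (-0.64) fell as well. Apart from Nr1d2 and the 5 largest rises among genes with a name (Ciart, Gpcpd1, Tmc7, Coq10b and Kcnk5), the genes of these paragraphs were chosen after their values were seen, since the 5 largest falls by the naming rule were all muscle genes. Elovl3 overlaps Pitx3, Angptl2 overlaps Ralgps1 and Nrg4 overlaps Fbxo22, each on the opposite strand.

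**Figure D2:**
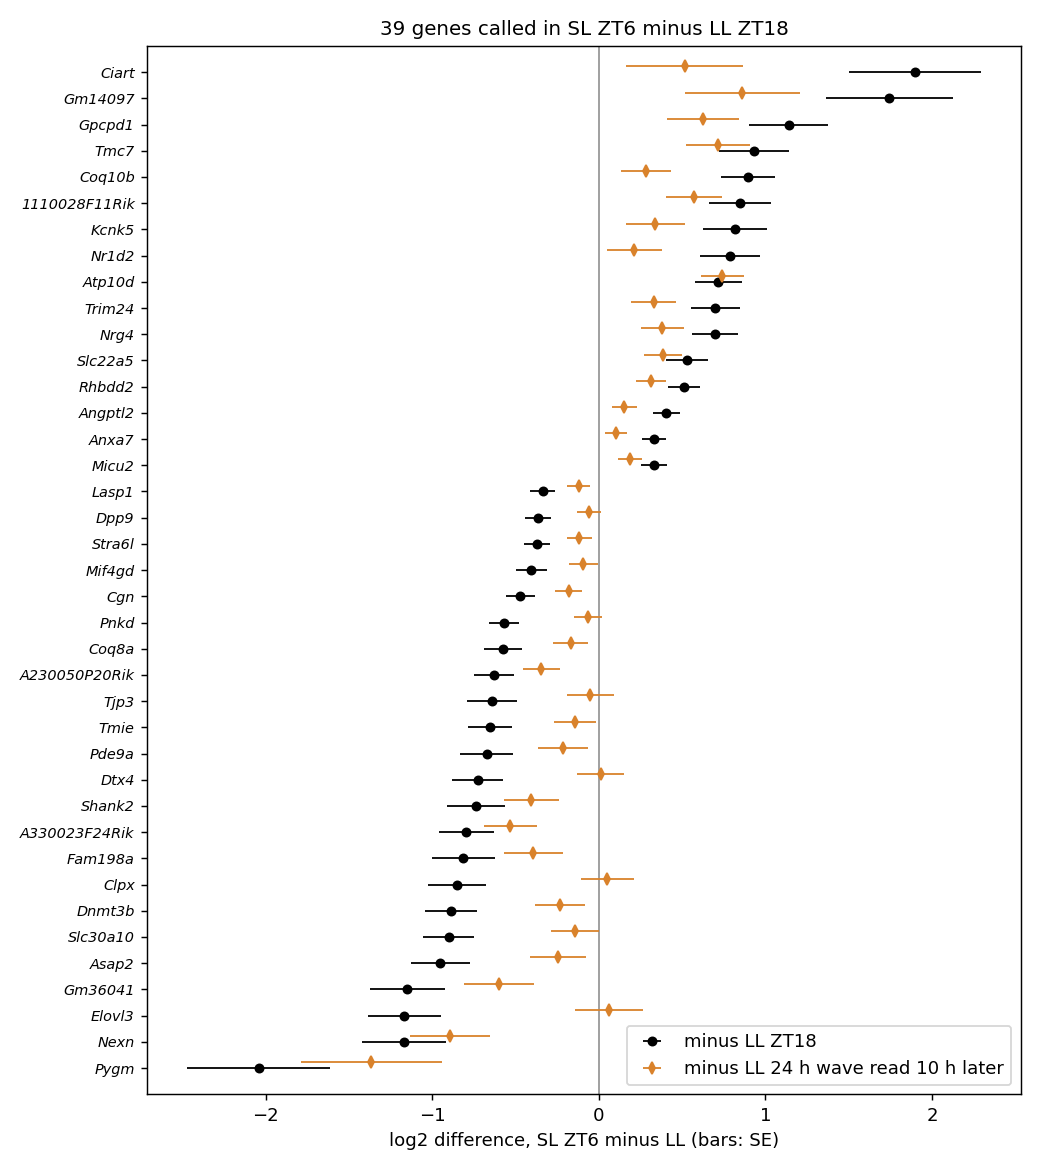
Log2 difference SL minus LL (horizontal axis) with SE for 39 of the 40 genes called in SL ZT6 minus LL ZT18 that did not follow the muscle marker sum. Black points use the LL ZT18 group, and orange diamonds use the 24 h wave fitted to all LL groups and read 10 h after the SL time; 38 of the 39 differences are smaller against the wave, and that of Atp10d is not.

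The 24 muscle-correlated genes coded for contractile and sarcomere proteins and muscle enzymes. The 5 largest falls were Tnnt3, Myh1, Myh2, Acta1 and Ckm, each near 0 in SL ZT6. Ckm, the muscle creatine kinase gene, was at 0, 0, 0 and 0.0507 CPM in SL ZT6 against 3.51, 6.73, 25.4 and 1.05 CPM in LL ZT18. Means of the 24 genes were at most 2.26 CPM in SL ZT6 and between 1.55 and 23.4 CPM in LL ZT18. The summed markers (Acta1, Ckm, Myh4, Mylpf, Tnnt3, Tnnc2, Pvalb and Atp2a1; 7 of 8 tested, 6 of them called lower) were at 0.458 to 0.913 CPM in SL ZT6 and at 26.6, 57.7, 197 and 10.3 CPM in LL ZT18. In bulk tissue, fewer cells of a type and less RNA per cell cannot be told apart. The sum did not overlap between the groups of this pair, so photoperiod and muscle transcripts cannot be told apart in it. Of the other 40 genes, Pygm (r = 0.796) and Nexn (r = 0.513), both known from muscle, also moved with the sum across the 32 libraries, and the 38 time-varying genes had r between -0.381 and 0.278. With the sum as a covariate 0 of the 64 genes remained called.

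**Figure D3:**
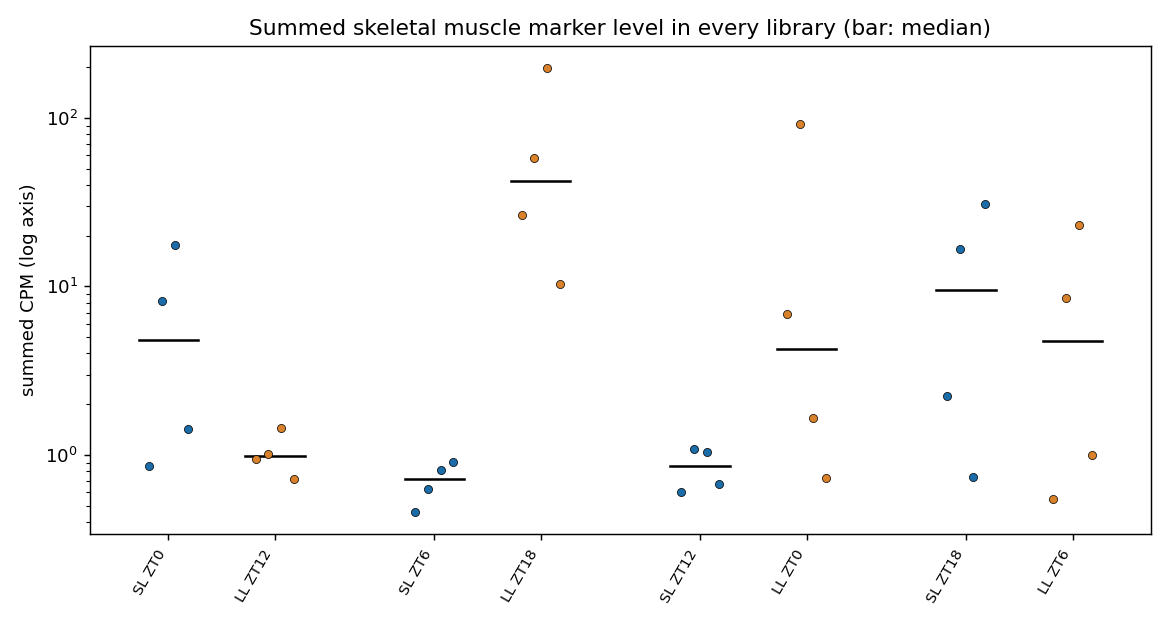
Summed CPM of 8 skeletal muscle markers in every library on a log axis, with the group median as a bar; SL blue, LL orange. All 4 LL ZT18 libraries (10.3 to 197 CPM) lie above all 4 SL ZT6 libraries (0.458 to 0.913 CPM).

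The count of 64 rested on single libraries. It was 0 without SL ZT6 replicate 1, 6 without SL ZT6 replicate 2, 35 without replicate 3 and 20 without replicate 4. On the LL side it was 5 without LL ZT18 replicate 2 and 34 without LL ZT18 replicate 3, and it was 124 without LL ZT12 replicate 3, a library of another pair that enters through the shared spread. It was 10 without the 3 libraries richest in muscle transcripts.

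The pair SL ZT0 minus LL ZT12 held 5 called genes, 1 higher (0.00692%) and 4 lower (0.0277%) in SL. Lingo4, which codes for a membrane protein with leucine-rich repeats, was at 1.71, 1.53, 1.90 and 1.70 CPM against 3.80, 3.57, 5.32 and 2.88 CPM, 2.25-fold lower (adjusted p = 0.0154). Whether its reads include transcripts of neighbouring loci was not tested. Nr1i2, which codes for the xenobiotic receptor PXR, was at 64.8, 70.0, 76.2 and 63.8 CPM against 102, 85.7, 111 and 93.7 CPM, 1.43-fold lower (adjusted p = 0.018).

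Eepd1, a gene named for its endonuclease, exonuclease and phosphatase domain, was the 1 gene called higher, at 41.6, 46.8, 32.4 and 26.6 CPM against 15.6, 24, 22.6 and 18.9 CPM (1.82-fold, adjusted p = 0.0157). The antisense transcript Gm16573 at Parp4, outside the naming rule, was 1.76-fold lower, at 10.8 ± 2.12 CPM against 18.8 ± 2.84 CPM (SD, n = 4). None of the 5 had overlapping groups, which over all tested genes held for 3.42% in this pair. The count was 0 without SL ZT0 replicate 1 or without LL ZT12 replicate 1, 1 without SL ZT0 replicate 2 or replicate 4, 2 without LL ZT12 replicate 4 and 8 without LL ZT6 replicate 1. It was 42 without SL ZT0 replicate 3, 32 without LL ZT12 replicate 2 and 13 without LL ZT12 replicate 3.

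In SL ZT12 minus LL ZT0 the edgeR test called 1 gene, higher in SL, and DESeq2 called 11. The count was 0 without SL ZT12 replicate 1, 3 or 4, and 2 without LL ZT0 replicate 2. The groups did not overlap for 5.44% of all tested genes. Muscle markers summed to 0.605 to 1.09 CPM in SL ZT12 and to 6.82, 91.9, 1.65 and 0.730 CPM in LL ZT0. The count was 0 with the muscle sum as a covariate and 0 without the 3 libraries richest in muscle transcripts. By edgeR, 811 genes had an unadjusted p under 0.05 in this pair, against 1679, 1119 and 699 in the SL ZT0, SL ZT6 and SL ZT18 pairs. If no gene differed, a share of 0.05 of the 14456 tests would still pass, a number near 811 and 699. For Lingo4 the log2 differences in order of the SL time were -1.17, -0.29, 0.89 and -0.04, so it was called lower in the SL ZT0 pair and in no other.

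The clock list differed less in the offset pairs than at the same ZT, and more than the run of tested genes. The offset was chosen on these data for the fewest time-varying differences, so the lower values in the pairs were partly built in. Both comparisons are descriptions. Of its 19 members, all of them tested, 0 were called higher and 1 lower in the SL ZT0 pair, 2 and 0 in the SL ZT6 pair, 1 and 0 in the SL ZT12 pair, and 1 and 3 in the SL ZT18 pair. Their median absolute log2 difference was 0.206, 0.348, 0.419 and 0.645 in order of the SL time, where all tested genes had 0.136, 0.104, 0.106 and 0.0949. At the same ZT the clock medians were 2.21, 0.769, 1.78 and 1.04, where all tested genes had 0.177, 0.185, 0.189 and 0.158. Arntl (log2 differences -0.42, -0.90, -0.02 and 0.82), Cry1 (-0.70, -0.35, 0.41 and 0.64) and Nr1d1 (1.003, 0.78, -1.33 and -0.83) passed the test in no single pair. Npas2 in SL ZT6 was at 0.05 ± 0.063 CPM and in LL ZT18 at 0.764 ± 0.57 CPM, and its adjusted p there was 0.0536. Bhlhe41 had the largest clock difference of the SL ZT0 pair (log2 difference 1.78, SE 0.37, adjusted p = 0.0616 by edgeR) and was not called. Clock, Per1, Per2, Cry2, Hlf and Nfil3 were called in no pair.

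The pairs were not of equal clock phase. In 18 of the 19 clock genes time of day was called in both photoperiods, and their fitted peak times differed by -9.87 h in SL minus LL (median; range -11.2 to -9.17 h), less than the 12 h of the pairing, so the LL liver of a pair stood further along the cycle. SL was therefore also compared with the 24 h wave fitted to the 4 LL groups and read 10 h after the SL time. Against that wave 0 genes (0%) were called for SL ZT0, 1 (0.00692%) for SL ZT6, 0 for SL ZT12 and 0 for SL ZT18. The 1 gene was Atp10d, with a log2 difference of 0.74 (adjusted p = 0.0388). The clock medians became 0.217, 0.129, 0.301 and 0.246. Of the 54 differences called in the pairs outside the muscle-correlated genes, 53 were smaller against the wave, and 37 shrank to under 50% of their size, with a median absolute log2 difference of 0.272 where the groups had given 0.804. The 54 were chosen for their size in the pairs and the 10 h reading came from peak times in the same libraries, so this tally is a description and supports no account of the differences. Per3 in SL ZT18 went from -2.06 to -0.88, Dbp from -2.45 to -0.89, Ppard from 1.55 to 0.65 and Cdkn1a from 1.73 to 1.02. Some uncalled clock differences grew instead. In SL ZT0, Bhlhe41 went from 1.78 to 1.99 (adjusted p = 0.0726 by edgeR) and Arntl from -0.42 to -0.95. A cosine through 4 groups smooths sharp peaks, and its 24 h period was assumed. Other readings gave 46, 10, 99 and 0 calls at 8 h, 4, 3, 3 and 0 at 9 h, 0, 1, 0 and 3 at 11 h, and 18, 15, 2 and 46 at 12 h, in order of the SL time.

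**Figure D4:**
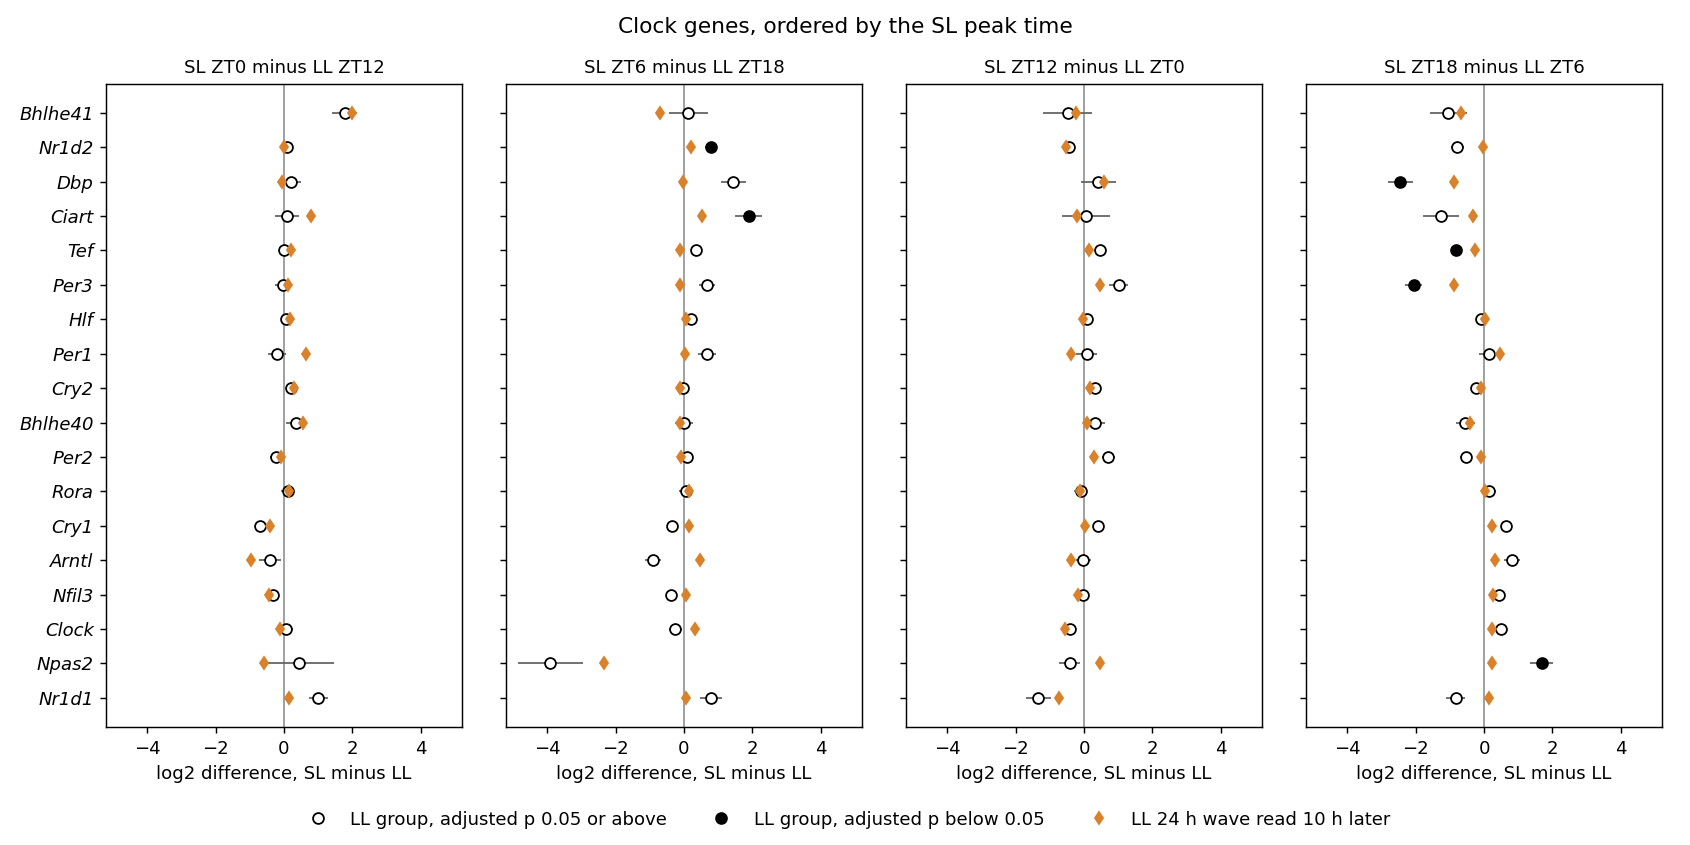
Log2 difference SL minus LL (horizontal axis) of 18 of the 19 clock genes in each pair, with SE (bars); filled circles have an adjusted p below 0.05. Orange diamonds replace the LL group by the LL 24 h wave read 10 h later; Dbp and Per3 in the SL ZT18 panel move from -2.45 and -2.06 to -0.89 and -0.88.

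The called genes include clock outputs, and 3 of their promoters are shown for orientation, picked after the search because they held an E-box or D-box in more than 1 copy or held both. The 250 bases before the start were searched on both strands for the E-box CACGTG, bound by CLOCK and BMAL1, the D-box TTATGTAA, bound by DBP and TEF, and the core AGGTCA of the element shared by ROR and REV-ERB receptors. Over 32851 mouse promoters of this length in RefSeq (GRCm38.p6), 6.02% held the E-box, 0.819% the D-box and 14% the receptor core; the E-box and D-box do not overlap each other in those shown. Sequences run 5′ to 3′ toward the gene, with motif matches in capitals. Per3 lies on the minus strand at chr4:151044666-151044915, Ciart on the minus strand at chr3:95882229-95882478 and Coq10b on the plus strand at chr1:55052520-55052769.
Per3: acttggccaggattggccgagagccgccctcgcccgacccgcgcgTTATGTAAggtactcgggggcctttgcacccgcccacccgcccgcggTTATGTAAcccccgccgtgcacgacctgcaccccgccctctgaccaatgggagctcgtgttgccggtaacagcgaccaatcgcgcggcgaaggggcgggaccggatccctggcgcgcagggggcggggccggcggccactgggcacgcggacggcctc
Ciart: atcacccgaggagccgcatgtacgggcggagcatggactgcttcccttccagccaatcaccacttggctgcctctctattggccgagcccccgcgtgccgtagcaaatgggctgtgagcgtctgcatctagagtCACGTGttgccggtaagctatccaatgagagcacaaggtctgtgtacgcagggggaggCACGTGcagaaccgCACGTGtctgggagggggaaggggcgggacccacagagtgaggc
Coq10b: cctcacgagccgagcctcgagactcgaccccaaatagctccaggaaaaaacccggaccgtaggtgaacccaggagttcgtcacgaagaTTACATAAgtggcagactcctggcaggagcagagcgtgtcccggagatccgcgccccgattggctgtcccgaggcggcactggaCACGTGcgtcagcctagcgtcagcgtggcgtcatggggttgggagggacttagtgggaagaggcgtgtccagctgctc
The Per3 promoter holds 2 D-boxes, the Ciart promoter 3 E-boxes, and the Coq10b promoter 1 D-box and 1 E-box. Of 12 genes higher in SL ZT6 minus LL ZT18 with a promoter entry, 3 held an E-box, 1 a D-box and 4 the receptor core, and of 14 lower genes 3, 0 and 3 did. A gene counted here if any of its listed promoters matched, whereas the shares above are per single promoter, so the counts cannot be set directly against them. Among the genes called in SL ZT18 minus LL ZT6, both listed promoters of Tef held an E-box, and those of Ppard, Dbp, Cdkn1a, Npas2 and Pxmp4 held none of these letters in the window. A match is a stretch of letters and not a measured binding site.

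The difference between SL and LL was not constant over the 4 pairs for 75 genes (0.519% of those tested, 3 degrees of freedom), a number that the choice of offset kept small. All 75 varied with time of day in at least 1 photoperiod and 70 in both. Over all tested genes the shares were 19.1% (SL) and 18.3% (LL), each photoperiod taken alone. A difference that changes over the day requires a change in at least 1 photoperiod, so the first count was nearly fixed in advance. The 70 come from the same selected genes and are a description. Ppard, Per3, Rhbdd2, Dbp, Cry1, Lingo4, Pnkd and Por were 8 of the 10 genes with the smallest p-values. Por, the gene of cytochrome P450 oxidoreductase, the electron donor of microsomal P450 enzymes, had log2 differences of -0.71, 0.58, 0.69 and -0.61 in order of the SL time, none of them past the threshold alone. Rhbdd2 had -0.35, 0.51, 0.40 and -0.43, and Pnkd 0.15, -0.57, 0.03 and 0.35. In 64 of the 75 (85.3%) the differences of the SL ZT6 and SL ZT18 pairs had opposite signs, against 54.4% of all tested genes. The SL ZT0 and SL ZT12 pairs had opposite signs in 46 (61.3%), against 48.1%. The 75 were picked for unequal pair differences, so an excess of opposite signs was built in by that choice and supports nothing. The part of the difference with a 24 h course was called for 99 genes (0.685%), 60 of the 75 among them, and the part that alternates every 6 h for 2 (0.0138%), both among the 75. Both parts lie within the 3 degrees of freedom, so their overlap with the 75 was built in as well. Leaving out LL ZT12 replicate 3 raised the 75 to 150, and all other single omissions kept it within 1.5 times.

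Averaged over the 4 pairs, 0 genes (0%) were called by edgeR, 730 had an unadjusted p under 0.05, DESeq2 called 6 and limma-voom 0. The 730 are near the share of 0.05 of all tests that passes when no gene differs. This comparison did not depend on the offset. Its 2 smallest adjusted p-values, 0.0547 each, belonged to Mup16 and Angptl2, which were chosen after their values were seen. Mup16 codes for a major urinary protein, a family of small carriers that liver secretes under growth hormone and sex hormone control (chromosome 4, 61515592 to 61519531). In SL it was at 16, 12.7, 15.7 and 9.73 CPM at ZT0 and at 3.14, 19.9, 7.34 and 29.3 CPM at ZT6. At ZT12 it was at 29.4, 7.80, 16 and 17.9 CPM and at ZT18 at 16.2, 22, 7.87 and 22.4 CPM. In LL the 16 libraries lay between 2.49 and 13.3 CPM (median 6.06 CPM). The groups overlapped in the SL ZT0 and SL ZT6 pairs and did not in the SL ZT12 and SL ZT18 pairs. The mean log2 difference was 1.43 (SE 0.25), with 0.73, 1.52, 2.01 and 1.48 in the 4 pairs.

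Most of the Mup family had mean differences above 0. By edgeR, 27 of 29 tested Mup genes were above 0, 15 had an unadjusted p under 0.05 and 0 were called, with a median of 0.355 and a range from -0.05 to 1.46. The 29 include loci with pseudogene symbols (Mup-ps), all of them above 0 and several of them among the 15. Over all tested genes the median was 0.00131. DESeq2 called Mup11 (adjusted p = 0.00597), Mup16 (0.000996) and Mup18 (0.00951). Its other calls included Angptl2 (0.0127) and the muscle gene Myh1 (log2 difference -7.06), which had the smallest adjusted p of all (9.79e-08). Without a filter on low counts edgeR called 9 genes, among them Mup11, Mup16, Mup17 and Mup18. Mup18 had the largest mean difference (1.46, SE 0.30), and Mup11 (1.10, SE 0.23) and Mup17 (1.06, SE 0.26) came after Mup16, while the abundant Mup3, at 5082 CPM, had 0.01. Mup genes are near-identical copies on chromosome 4 and may share reads, so the split between members is uncertain and they are not independent of each other. The mean difference of Angptl2 was 0.23 (SE 0.04), with 0.03, 0.40, 0.33 and 0.14 in the 4 pairs. In the SL ZT12 pair its SL libraries lay between 12.1 and 13.9 CPM and its LL libraries between 10.1 and 10.4 CPM. Leaving out 1 library gave up to 3 called genes in the mean: Mup16 was among them without SL ZT0 replicate 2, SL ZT6 replicate 1 or 3, SL ZT12 replicate 2, SL ZT18 replicate 1 or 3, LL ZT12 replicate 3 or LL ZT18 replicate 3. Without LL ZT12 replicate 1 the 1 call was Angptl2. With the muscle sum as a covariate Mup16 was called (log2 difference 1.69, adjusted p = 0.0117), and over the 11 alternatives other than omitting 1 library its adjusted p ran from 1.82e-06 to 0.18.

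**Figure D5:**
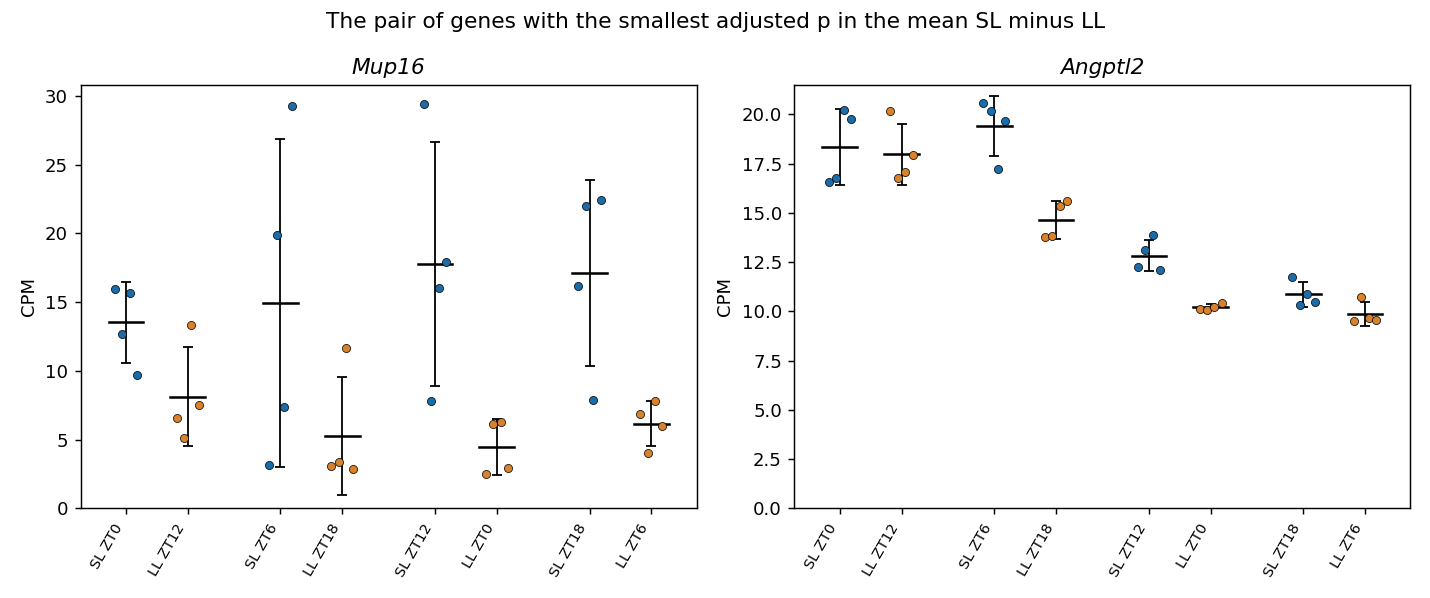
Level of Mup16 and Angptl2 in CPM in every library (points), with group mean and SD (n = 4), SL blue and LL orange, in offset pairs. The Mup16 means are higher in SL in all 4 pairs with overlapping libraries in the SL ZT0 and SL ZT6 pairs, and Angptl2 is 19.4 against 14.6 CPM in SL ZT6 and LL ZT18.

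Pathway lists other than the clock held almost no call in the 4 pairs. Calls in the test of the difference between the pairs are not counted in this tally. Of 28 lists, 23 had 0 called members in all 4 pairs. Besides the clock list, calls came from Nr1i2 in the xenobiotic list, Elovl3 in the growth hormone and sex-biased list, and Cdkn1a, which is in both the cell cycle and the glucocorticoid list. Some lists without a call in any pair had shifted medians, given here as values. The 26 genes of cholesterol synthesis and uptake had a median log2 difference of -0.405 in SL ZT18 minus LL ZT6, 25 of them below 0 and 20 with an unadjusted p under 0.05, where all tested genes had a median of 0.00158. The lowest adjusted p among them was that of Fdft1, squalene synthase (log2 difference -0.50, adjusted p = 0.107). In the other pairs the list's medians were 0.168, 0.158 and -0.0276.

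The 21 interferon-stimulated genes had medians of 0.387 in the SL ZT0 pair and -0.349 in the SL ZT18 pair, with 0 called in any pair. The 12 macrophage markers had medians of 0.276 and -0.213 in the same 2 pairs, and the part of macrophage number in the interferon values was not tested. The 22 genes of fatty acid and triglyceride synthesis were all above 0 in SL ZT12 minus LL ZT0 (median 0.233), and none was called in that pair. Pnpla3 was the furthest with 1.67 (adjusted p = 0.493). Its differences in order of the SL time were 0.80, -0.76, 1.67 and -1.29, and the test of the difference between pairs called it (adjusted p = 0.0179 by edgeR). At the same ZT, 15, 10, 12 and 4 of the cholesterol genes and 13, 8, 7 and 6 of the lipid synthesis genes had been called in order of the SL time.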

How the data were processed

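Poly(A) RNA of 32 livers was sequenced from stranded libraries, per the labels' protocols. The authors deposited raw read counts per gene, and the submitters' processing notes name bcl2fastq 2.20.0, STAR 2.7.2b, featureCounts 1.6.2 and GRCm38. The sources used here name no strand setting, no treatment of multi-mapped reads and no annotation for the counting. The authors also deposited log2 expression values, which were used only as an alternative.

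Genes were kept by the filterByExpr function of edgeR 4.0.16 (R 4.3.3), scaled by TMM and fitted with 1 mean per group over all 32 libraries. Differences are quasi-likelihood F tests at the default settings, adjusted by Benjamini and Hochberg over 14456 genes, with a threshold of 0.05. A prior count of 2 entered the log2 CPM values behind the fitted peak times and the correlations with the muscle sum, and not these tests. CPM values use TMM-scaled totals. Alternatives used DESeq2 1.42.0, limma 3.58.1, other filters and scalings, omitted libraries, the replicate number and a muscle covariate. On simulated counts over the 14456 genes, 81% to 89% of changes of log2 size 1 were recovered in the 4 pairs, with 6 to 13 false calls per pair. Per pair, 100 changes of log2 size 1 and 100 of size 2 were planted, only in genes of at least 1 CPM. All libraries were otherwise drawn from 1 mean level per gene, without time of day or muscle transcripts. The adjusted threshold depends on how many genes differ, so these rates do not carry over to the measured pairs. No 2 libraries of a group differed by less than sampling noise.

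The offset, the genes and the lists were chosen with earlier results of these data known. The naming rule took the 5 largest rises and falls among genes called in a pair with a mean of at least 1 CPM, skipping unnamed loci (1 in the SL ZT0 pair and 5 in the SL ZT6 pair; 3 called genes of the latter were below 1 CPM), the 10 smallest p-values of the difference between pairs, and the clock list. Symbols and positions are from GENCODE M21 on GRCm38. Promoters are from RefSeq. Results for some genes are not reported here.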

Additional observations from a re-analysis of the deposited data

Results flagged for a closer look

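Among 64 groups of 4 libraries, 4 had a library set apart from its mates by the criterion of Dixon, and chance gives about 1 in 20. Clpx in LL ZT18 was highest in replicate 4, at 322 CPM, with the others between 290 and 295 CPM. Ckm in SL ZT6 was at 0.0507 CPM in replicate 4 and 0 in the others. Mup16 in LL ZT18 was highest in replicate 3, at 11.7 CPM, with the others between 2.83 and 3.37 CPM. The muscle marker sum in LL ZT0 was highest in replicate 2, at 91.9 CPM, with the others between 0.730 and 6.82 CPM.

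The difference between photoperiods varied over the 4 pairs for 75 genes by the edgeR test. The smallest adjusted p was 1.49e-05 for Ppard, followed by 5.46e-05 for Per3 and 0.000196 for Rhbdd2. It was 0.000556 each for Dbp, Cry1, Lingo4, Pnkd and Por.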

How the results depend on the processing

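Values are numbers of called genes for SL ZT0, SL ZT6, SL ZT12 and SL ZT18 (reported as 5, 64, 1 and 8), then the mean (0) and the difference between pairs (75). Without a filter on low counts they were 52, 155, 11, 29, 9 and 250, and with DESeq2 65, 98, 11, 30, 6 and 228. DESeq2 gave no adjusted p for 2243, 1, 11210 and 1122 genes in the pairs. A stricter filter gave 9 and 33 for SL ZT0 and SL ZT6, limma on the authors' log2 values gave 9 and 32, and limma-voom gave 34 for SL ZT6. Fitting only the 8 libraries of a pair gave 0, 0, 0 and 1. Against the LL wave read 10 h later the counts were 0, 1, 0 and 0, at 8 h 46, 10, 99 and 0, at 9 h 3, 3 and 0 for SL ZT6 to SL ZT18, at 11 h 0, 1, 0 and 3, and at 12 h 18, 15, 2 and 46. At 10 h the signs of Clpx (0.0514), Dtx4 (0.0105) and Elovl3 (0.0612) turned in SL ZT6. LL taken 0, 6 or 18 h later gave 4720, 1350 and 3821 genes that differed between pairs. The following were added after seeing the data. Without LL ZT18 replicates 2 and 3 and LL ZT0 replicate 2, the muscle-rich libraries, SL ZT6 had 10, SL ZT12 0 and the mean 1. Leaving out LL ZT12 replicate 3 as well gave 9, 28, 0, 20, 2 and 120, and the muscle covariate 10, 0, 0, 5, 1 and 37. The cause of these changes was not tested.

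Leaving out each library in turn gave 0 to 42, 0 to 124, 0 to 2, 4 to 18, 0 to 3 and 55 to 150. No gene was called in the same direction in at least 3 pairs under any of these omissions. Replicate numbers did not pair the libraries: 0 of 16 correlations of same-numbered deviations exceeded 0.1 (-0.175 to 0.0829), and 2 of 16 were best with their own number. With the replicate number as a block the counts were 8, 68, 1, 7, 0 and 89. Both other scalings kept all 59 named calls. In pairs of 4 and 4, the median SE was 0.147 to 0.15 in log2 units. Calls had differences several times their SE, as in Slc22a5 in the SL ZT6 pair (0.53, SE 0.13, adjusted p = 0.0481 by edgeR). The size that was called depended on the SE of the gene, and Lasp1 was called in the same pair at -0.34 (SE 0.08, adjusted p = 0.0329 by edgeR). Differences that were small beside the SE of their own gene may have gone uncalled.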
